A study of Sus scrofa with 20 samples.

Results

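The guanylate-binding proteins (GBPs) were followed in the epicardial fat of Ossabaw pigs through the rows GBP1, GBP2 and GBP6_3 of a table of exon reads, 3 of its 22861 gene rows, and through GBP1 and GBP2 of a second table of gene reads, 2 of its 10157 rows. The 3 genes were selected on their exon reads in the diet groups, as an interferon gamma type group of genes. That name came with the selection, and which interferon acted was not tested. Their levels and fold changes are therefore given as a description, with no test of a difference between groups. Such tests are given only for other genes, the other GBP rows included. The lists of other genes were also chosen with earlier results of these data known, so counts over a list are a description too. All 3 rows passed the filter on low reads.

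RNA came from the fat that lies on the heart under the pericardium, and 20 libraries were analysed in 3 groups. The WD+S group (8 libraries) held pigs given atorvastatin with a Western diet, one with much refined grain, cholesterol and saturated fat. Atorvastatin is a statin, a drug that lowers cholesterol synthesis. The HHD+S group (6 libraries) held pigs fed a Heart Healthy diet, rich in unsaturated fat, unrefined grain, fruits and vegetables, with the same drug. The HHD group (6 libraries) received the Heart Healthy diet alone. The label of the first group reads atherogenic, which was taken as the Western diet of the design. The Western diet without atorvastatin was not analysed here, so WD+S and HHD differ in both diet and drug. The labels used here give no dose, and no age, sex or litter for a library. Libraries were treated as separate pigs because their titles differ. Were some of them from 1 animal, p-values would partly reflect technical spread.

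GBPs are large GTPases of the dynamin superfamily that cells make in response to interferons. Interferon gamma, a cytokine of T cells and natural killer cells, acts through its receptor and the kinases JAK1 and JAK2, and IRF1 is among the transcription factors that act on GBP promoters. Type I interferons can induce GBPs as well. In human and mouse cells the proteins assemble on intracellular bacteria and on the vacuoles around pathogens, and they help inflammasomes to recognise bacterial products. Human GBP1 is anchored to membranes by a farnesyl group and human GBP2 by a geranylgeranyl group, both of which are made from products of the pathway that statins inhibit.

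Each library held between 2749337 and 6543337 exon reads. The names of the deposited files carry a pool number whose meaning is not stated, and pool was treated as a possible batch. Pool 1 held 4 libraries of each group, and pool 2 the remaining 4 of WD+S, 2 of HHD+S and 2 of HHD. All 12 markers of fat cells were detected, with a summed level of 12250 to 22560 CPM (counts scaled by library size and TMM factor) in WD+S, 15820 to 27220 CPM in HHD+S and 12770 to 22600 CPM in HHD. In bulk tissue, fewer cells of a type and less RNA per cell cannot be told apart.

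GBP1 and GBP2 are neighbouring genes in RefSeq's pig gene list. GBP1 carried the identifier ENSSSCG00000006924 in the files, GBP2 ENSSSCG00000006923 and GBP6_3 ENSSSCG00000006919. The ending of GBP6_3 marks it as the third of 3 rows named GBP6, so reads of this gene may be split between rows. The GBP5 row carried ENSSSCG00000024973, an identifier that the reference name list gives to GBP1, and the values of that row are uncertain for this reason. Exon reads ranged from 118 to 4921 per library for GBP1, from 73 to 1144 for GBP2 and from 11 to 744 for GBP6_3, so GBP6_3 was the least precisely measured of the 3 in HHD fat, at 11 to 29 reads.

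GBP1, which in human cells starts the GBP coat on bacteria, had 109.9, 71.9, 60.9, 121.6, 76.9, 31.4, 348 and 718 CPM in WD+S replicates 1 to 8. It had 40.9, 34.6, 59.9, 43.9, 807 and 1485 CPM in HHD+S replicates 1 to 6, and 33.8, 46.1, 34.3, 39.1, 43.1 and 33.1 CPM in HHD replicates 1 to 6. WD+S replicates 7 and 8 and HHD+S replicates 5 and 6 stood far above all other libraries, and the HHD libraries lay close together. Outside those 4 libraries GBP1 reached at most 121.6 CPM, and 7 of the 8 WD+S libraries were above every HHD library, the exception being replicate 6. At 31.4 CPM, that replicate was below every HHD and every HHD+S library. In HHD+S, 3 of 6 libraries were above every HHD library.

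GBP2, a close relative that in human cells joins the coat begun by GBP1, had 39.5, 34.7, 40.6, 37.1, 37.2, 28.8, 102.0 and 174.6 CPM in WD+S replicates 1 to 8. Its level was 30.8, 25.7, 34.3, 27.2, 242 and 345 CPM in HHD+S, and 25.2, 26.8, 23.4, 30.7, 30.4 and 34.5 CPM in HHD. The same 4 libraries were the highest, and the rest spanned a narrower range than for GBP1. Again 7 of 8 WD+S libraries exceeded every HHD library, but 2 of 6 HHD+S libraries did.

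GBP6_3, one of the rows named for a GBP whose function is less well described, had 19.6, 14.7, 9.17, 20.97, 10.4, 5.49, 48.2 and 80.8 CPM in WD+S. The HHD+S libraries had 6.35, 6.33, 5.56, 11.2, 133.6 and 224 CPM, and the HHD libraries 2.77, 7.46, 2.45, 4.61, 3.10 and 6.07 CPM. Its order over libraries was close to that of GBP1, with the same 4 libraries at the top. WD+S replicate 6 was the only WD+S library within the HHD range, and 3 of 6 HHD+S libraries were above that range. The lowest of the 4 high libraries was 2.86 times the highest of the other 16 for GBP1, 2.51 times for GBP2 and 2.30 times for GBP6_3.

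**Figure D1:**
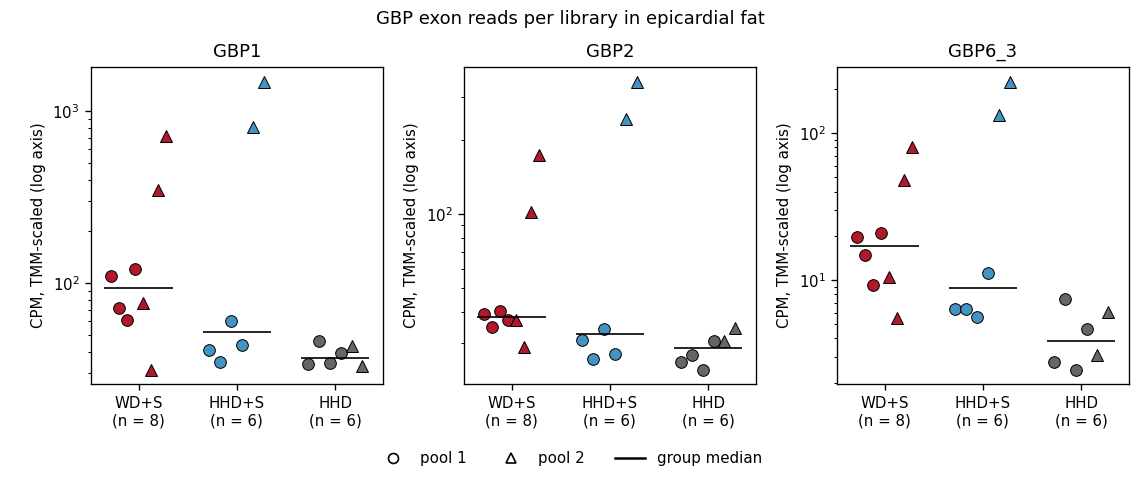
GBP1, GBP2 and GBP6_3 exon reads per library as CPM on log axes, in WD+S (n = 8), HHD+S (n = 6) and HHD (n = 6). Each point is a library, circles are pool 1, triangles are pool 2 and bars are group medians. WD+S replicates 7 and 8 (348 and 718 CPM of GBP1) and HHD+S replicates 5 and 6 (807 and 1485 CPM) stand above all other libraries.

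Group averages of the 3 genes therefore depended on a few libraries. GBP1 averaged 192 ± 234 CPM in WD+S (SD, n = 8), 412 ± 608 CPM in HHD+S (n = 6) and 38.2 ± 5.43 CPM in HHD (n = 6), with medians of 93.4, 51.9 and 36.7 CPM in the same order. By the mean HHD+S was the highest group, by the median WD+S was, and these groups did not differ beyond their spread. For none of the 3 genes were all WD+S libraries above all HHD+S libraries, a separation seen for 0.0704% of genes. GBP2 averaged 61.8 ± 51.2 CPM in WD+S, 117.6 ± 140.3 CPM in HHD+S, with 28.5 ± 4.11 CPM in HHD. GBP6_3 averaged 26.2 ± 25.7 CPM in WD+S, 64.6 ± 93.2 CPM in HHD+S, with 4.41 ± 2.02 CPM in HHD. For both genes the SD of the HHD+S group exceeded its mean, and the HHD group was again the lowest by mean and by median.

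The edgeR estimate of the log2 fold change of HHD+S over HHD was 3.43 (SE 0.93) for GBP1, 2.04 (SE 0.62) for GBP2 and 3.87 (SE 0.94) for GBP6_3. That of WD+S over HHD was 2.33 (SE 0.86), 1.13 (SE 0.58) and 2.59 (SE 0.90) for the same genes, and these comparisons share the HHD libraries. WD+S over HHD+S gave -1.09 (SE 0.77), -0.92 (SE 0.55) and -1.28 (SE 0.73), and shares its libraries with the other comparisons. Within each comparison GBP2 had the smallest change of the 3 genes and GBP6_3 the largest. The gene-read table gave 3.38 and 2.03 for GBP1 and GBP2 in HHD+S over HHD, 2.34 and 1.15 in WD+S over HHD, and -1.04 and -0.88 in WD+S over HHD+S. That table has no row named GBP6_3.

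Across all 11366 genes tested with edgeR's quasi-likelihood test, the share called at a Benjamini-Hochberg adjusted p under 0.05 was 0.0% in each of the 3 comparisons. At an unadjusted p under 0.05, 4.72% of genes were higher and 3.73% lower in HHD+S than in HHD, 7.56% higher and 3.87% lower in WD+S than in HHD, and 5.9% higher and 2.79% lower in WD+S than in HHD+S. DESeq2 called 0.0968%, 0.713% and 0.088% of genes in these comparisons, in the order given.

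The GBPs ordered the groups differently in the 2 pools. In pool 1 all 4 WD+S libraries were above all 4 HHD libraries for each of the 3 genes, a separation seen for 2.31% of all genes. GBP1 averaged 91.1 ± 29.3 CPM in WD+S, 44.8 ± 10.8 CPM in HHD+S, with 38.3 ± 5.70 CPM in HHD within pool 1 (SD, n = 4 each). GBP2 averaged 38.0 ± 2.61 CPM in WD+S, 29.5 ± 3.84 CPM in HHD+S, with 26.5 ± 3.10 CPM in HHD there, and GBP6_3 averaged 16.1 ± 5.35, 7.35 ± 2.57 and 4.32 ± 2.30 CPM in the same groups. WD+S was thus the highest group of pool 1 for each gene, and its 4 libraries were above all 4 HHD+S libraries for GBP1 and GBP2, a separation seen for 1.78% of all genes. For GBP6_3, 3 of the 4 were. In the same pool summed fat cell markers were 12250 to 14060 CPM in WD+S, 15820 to 27220 CPM in HHD+S and 12770 to 22600 CPM in HHD, so the WD+S libraries lay below all HHD+S libraries and overlapped with HHD. Cardiomyocyte markers had pool 1 medians of 1064, 271.8 and 966.9 CPM in the same order of groups. The part of these cell types in the pool 1 values was not tested.

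In pool 2 the order of the drug-treated groups by mean was the opposite. GBP1 averaged 1146 CPM in HHD+S (n = 2) and 293.6 CPM in WD+S (n = 4) there. GBP2 averaged 293.7 and 85.65 CPM and GBP6_3 179.0 and 36.2 CPM in the same groups. The log2 fold change of WD+S over HHD+S was 1.00 (SE 0.23) for GBP1 in pool 1 and -1.96 (SE 0.89) in pool 2. For GBP2 it was 0.35 in pool 1 and -1.77 in pool 2, and for GBP6_3 it was 1.14 and -2.28. HHD+S over HHD gave 0.23 in pool 1 and 4.91 in pool 2 for GBP1, 0.16 and 3.17 for GBP2, and 0.74 and 5.27 for GBP6_3. WD+S over HHD kept its sign in both pools, at 1.24 in pool 1 and 2.94 in pool 2 for GBP1, 0.50 and 1.40 for GBP2, and 1.88 and 2.99 for GBP6_3. All 4 high libraries belong to pool 2 and carry C3 or C4 in their file names, a mark whose meaning is not stated. HHD replicate 5, in pool 2 with C3, had 43.1 CPM of GBP1, and HHD+S replicate 3 and HHD replicate 2, in pool 1 with C4, had 59.9 and 46.1 CPM. WD+S replicates 5 and 6, in pool 2 with C2R, had 76.9 and 31.4 CPM, while both HHD+S libraries of that pool carry C3 or C4. Group and mark are therefore partly mixed in the pool 2 comparison of WD+S with HHD+S.

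Without the 4 high libraries, a setting chosen after seeing the data, GBP1 had a log2 fold change of 0.23 (SE 0.27) in HHD+S over HHD, 1.04 (SE 0.24) in WD+S over HHD and 0.81 in WD+S over HHD+S. The corresponding values were 0.05, 0.35 and 0.30 for GBP2, and 0.71, 1.59 and 0.88 for GBP6_3. These 4 libraries were left out because their GBP levels were the highest, so these values are a description. Of single libraries, HHD+S replicate 6 moved GBP1 most in WD+S over HHD+S, to -0.03 without it, and WD+S replicate 8 moved it to -1.81.

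**Figure D2:**
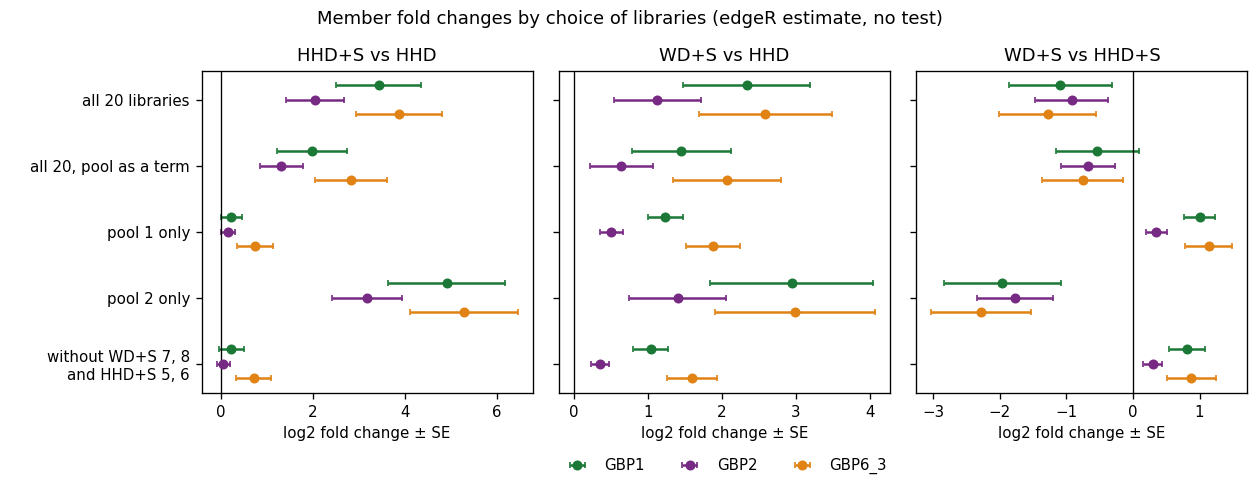
Log2 fold changes of GBP1, GBP2 and GBP6_3 (edgeR estimate, bars are ± 1 SE) in the 3 comparisons, over all 20 libraries, with pool as a term, within each pool, and without WD+S replicates 7 and 8 and HHD+S replicates 5 and 6. In WD+S over HHD+S the sign of GBP1 is negative over all libraries (-1.09) and positive in pool 1 (1.00).

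The make-up of the GBP reads differed between libraries along with their amount. GBP1 took 42.6% to 71.5% of the reads of the 6 GBP rows in WD+S libraries, 46.2% to 70.3% in HHD+S libraries and 40.1% to 52.0% in HHD libraries. The number of GBP1 reads for each GBP2 read had a median of 2.43 in WD+S (range 1.09 to 4.11), 1.68 in HHD+S (1.33 to 4.30) and 1.38 in HHD (0.96 to 1.72). It was above every HHD library in 6 of 8 WD+S and 3 of 6 HHD+S libraries. The number of GBP6_3 reads for each GBP2 read had medians of 0.443 in WD+S, 0.329 in HHD+S and 0.130 in HHD. In the 4 high libraries these ratios were 3.33 to 4.30 and 0.463 to 0.650, against 0.96 to 3.28 and 0.102 to 0.565 in the other 16. The ranges overlapped for GBP6_3, since WD+S replicates 1 and 4, at 0.496 and 0.565, exceeded WD+S replicates 7 and 8.

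Compared per length, in the RPKM values the authors deposited, the order of GBP1 and GBP2 differed between groups. GBP1 averaged 54.2 ± 64.3 RPKM in WD+S, 117.0 ± 170.8 RPKM in HHD+S and 10.8 ± 1.59 RPKM in HHD, and GBP2 averaged 33.0 ± 25.2, 63.1 ± 74.3 and 14.8 ± 2.47 RPKM in the same groups. GBP1 was the more abundant of the pair in 6 of 8 WD+S libraries, 2 of 6 HHD+S libraries and 0 of 6 HHD libraries. These per-length levels rest on the same reads as the differences above and are no separate evidence.

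**Figure D3:**
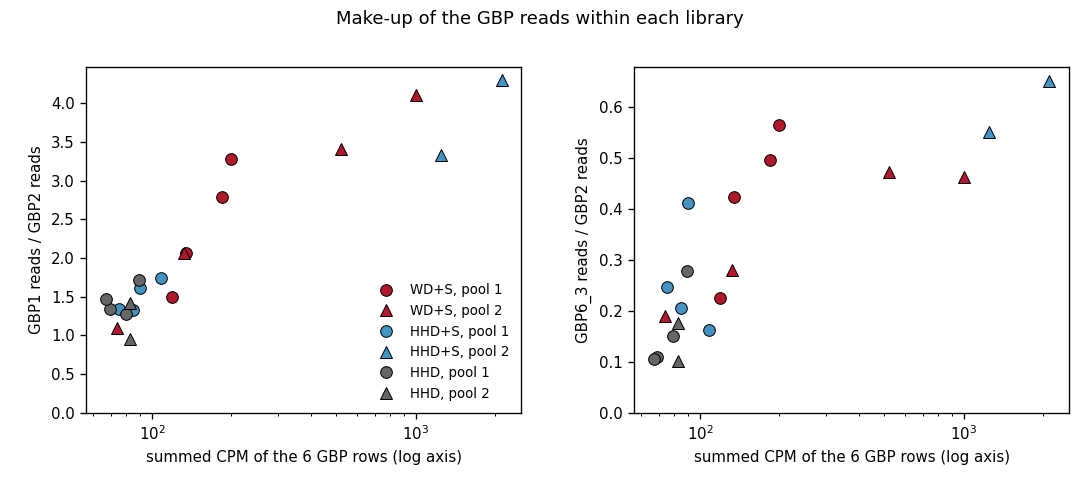
GBP1 reads per GBP2 read (left) and GBP6_3 reads per GBP2 read (right) against the summed CPM of the 6 GBP rows (log axis), by library, with group by colour and pool by shape. The 4 libraries with the most GBP reads have 3.33 to 4.30 GBP1 reads per GBP2 read, against 0.96 to 1.72 in HHD libraries.

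The other GBP rows were measured on fewer reads. GBP6_1, another row named GBP6, had a median of 8.54 CPM in WD+S, 5.09 CPM in HHD+S, with 3.87 CPM in HHD, and 7 of 8 WD+S libraries were above every HHD library. Its log2 fold change was 2.22 (SE 0.63, adjusted p = 0.399, edgeR) in HHD+S over HHD and 1.49 (SE 0.61, adjusted p = 0.337) in WD+S over HHD, neither past the threshold. In the gene-read table GBP6 and GBP6L* were in all 8 WD+S libraries above every HHD library. Such a separation was seen for 0.132% of genes in exon reads, and its share in gene reads was not computed. GBP6_1, GBP6 and GBP6L* were highest in WD+S replicates 7 and 8 and HHD+S replicates 5 and 6, as GBP6_3 was. They may share reads with GBP6_3, so their values are no separate evidence. GBP6 and GBP6L* had edgeR log2 fold changes of 1.60 (adjusted p = 0.274) and 1.99 (adjusted p = 0.188) in WD+S over HHD. They did not pass the threshold, nor did HHD+S over HHD at 2.22 and 2.43 (adjusted p = 0.34 for both).

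GBP5, which in human cells promotes inflammasome assembly, was not above the HHD range in every library where GBP1 was highest. In exon reads its row had 3.82 and 4.34 CPM in WD+S replicates 7 and 8, within the HHD range of 1.40 to 4.42 CPM, but 22.5 and 8.75 CPM in HHD+S replicates 5 and 6. In gene reads the same WD+S libraries, at 6.61 and 6.56 CPM, were just above the highest HHD library, at 6.28 CPM, as were 5 of the 8 WD+S libraries in all. Its log2 fold change was 1.20 in HHD+S over HHD (adjusted p = 0.553, edgeR) and 0.47 in WD+S over HHD (adjusted p = 0.763). GBP6_2, GBP4 and GBP7 had at most 4, 52 and 24 reads in a library and were not tested. The deposited RPKM of GBP4 and GBP7 was above 0 in 1 library each that had no unique read, so those RPKM values counted more than unique reads.

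Upstream of the GBPs, the interferon gamma pathway was uneven. IFNG itself, the ligand, had 20 exon reads over all libraries, of which 8 and 5 came from HHD+S replicates 5 and 6, and no other library had more than 2. It was not tested. The receptor chain IFNGR1 was level, at 89.1 ± 7.30 CPM in WD+S, 92.9 ± 11.6 CPM in HHD+S, with 91.8 ± 13.3 CPM in HHD, with a log2 fold change of 0.02 (SE 0.11) in HHD+S over HHD and -0.04 (SE 0.10) in WD+S over HHD. IFNGR2, its partner chain, averaged 159 ± 13.1, 174 ± 26.2 and 174 ± 9.21 CPM of gene reads in WD+S, HHD+S and HHD. Gene reads of JAK1 and JAK2 gave log2 fold changes of -0.10 and -0.21 in HHD+S over HHD and -0.02 and -0.20 in WD+S over HHD, each within 1.5 SE of 0 and with adjusted p of 0.71 or more in edgeR's test.

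Of the 10 tested genes of the interferon gamma signalling list, from ligand to feedback inhibitors, 0 were called by edgeR or DESeq2 in any comparison. At an unadjusted p under 0.05, 2 were higher in HHD+S than in HHD, against 4.72% of all genes, and 0 in the other comparisons, against 7.56% and 5.9%. In gene reads 14 were tested. At the same threshold 4 were higher in HHD+S than in HHD, 1 was higher in WD+S than in HHD and 2 were lower in WD+S than in HHD+S. Over all 6685 genes of that table the corresponding numbers were 342, 496 and 164. IL15, a cytokine that sustains natural killer cells, was at 0.80 (SE 0.29, adjusted p = 0.461, edgeR) in HHD+S over HHD. The median log2 fold change of that list was -0.11 in HHD+S over HHD and -0.06 in WD+S over HHD, beside -0.01 and -0.02 over all genes.

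Most genes that interferon gamma induces had a positive fold change in HHD+S over HHD, though with edgeR none was past the adjusted threshold. Their list was chosen with earlier results of these data known, so its counts are a description. Of 18 tested, 10 had an unadjusted p under 0.05 and were higher, against 4.72% of all genes, 17 had a positive fold change, against 48.1%, and the median log2 fold change was 0.60. Over the same 18 genes, 2 were higher in WD+S than in HHD at that threshold, against 7.56% of all genes. There 14 were positive, against 46.2%, and the median was 0.23. Between WD+S and HHD+S, 3 were lower in WD+S at that threshold, against 2.79% of all genes, and 1 was positive, against 48.2%, with a median of -0.41. With adjustment over all genes edgeR called 0 in each comparison, while DESeq2 called 1, CXCL10, in HHD+S over HHD. The targets of smallest p in HHD+S over HHD were UBD, CXCL10, PSME2 and BATF2. Their ratios of HHD+S over HHD were 6.08, 22.9, 2.31 and 5.72 by means, but 1.88, 1.84, 1.48 and 1.26 by medians. The counts of HHD+S over HHD thus lean on a few high libraries, and counts at an unadjusted p within pool 1 are not given.

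CXCL10, a chemokine that attracts T cells, had 3.73 to 165 CPM in WD+S (median 8.71), 3.07 to 372 CPM in HHD+S (median 5.72) and 2.00 to 9.01 CPM in HHD (median 3.11). Its log2 fold change in HHD+S over HHD was 4.53 (SE 1.26), with an adjusted p of 0.399 in edgeR's test and 0.0377 in DESeq2's. Only 2 of 6 HHD+S libraries, replicates 5 and 6, were above every HHD library. UBD, a ubiquitin-like modifier, averaged 38.0 ± 30.6 CPM in WD+S, 88.1 ± 107.1 CPM in HHD+S, with 14.5 ± 5.25 CPM in HHD, and 6 of 8 WD+S and 4 of 6 HHD+S libraries were above every HHD library. UBD did not pass the threshold, with an adjusted p of 0.399 in HHD+S over HHD and 0.375 in WD+S over HHD in edgeR's test.

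IRF1, a transcription factor that interferon gamma induces, averaged 76.9 ± 45.6 CPM in WD+S, 130.0 ± 140.9 CPM in HHD+S, with 45.7 ± 9.998 CPM in HHD. It was above every HHD library in 4 of 8 WD+S and 2 of 6 HHD+S libraries, and its log2 fold change in HHD+S over HHD was 1.50 (adjusted p = 0.44, edgeR). CIITA, which switches on MHC class II genes, had log2 fold changes of 1.10 in HHD+S over HHD (adjusted p = 0.545) and 0.59 in WD+S over HHD (adjusted p = 0.65) in edgeR's test. IDO1, an enzyme that breaks down tryptophan, had 255 exon reads in all and was not tested. It was above every HHD library in 6 of 8 WD+S libraries and 6 of 6 HHD+S libraries, at medians of 1.24 CPM in WD+S, 1.95 CPM in HHD+S, with 0.509 CPM in HHD. A full separation of HHD+S from HHD was seen for 0.0616% of the genes tested. CXCL9, a second chemokine of the pathway, averaged 20.3 ± 37.2 CPM of gene reads in WD+S, 105.5 ± 186.6 in HHD+S and 4.17 ± 2.33 in HHD, and WARS, a tRNA synthetase, had an edgeR log2 fold change of 0.87 in HHD+S over HHD (adjusted p = 0.44). IRF8, a transcription factor of myeloid cells, differed little, at 0.20 in HHD+S over HHD and 0.07 in WD+S over HHD.

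**Figure D4:**
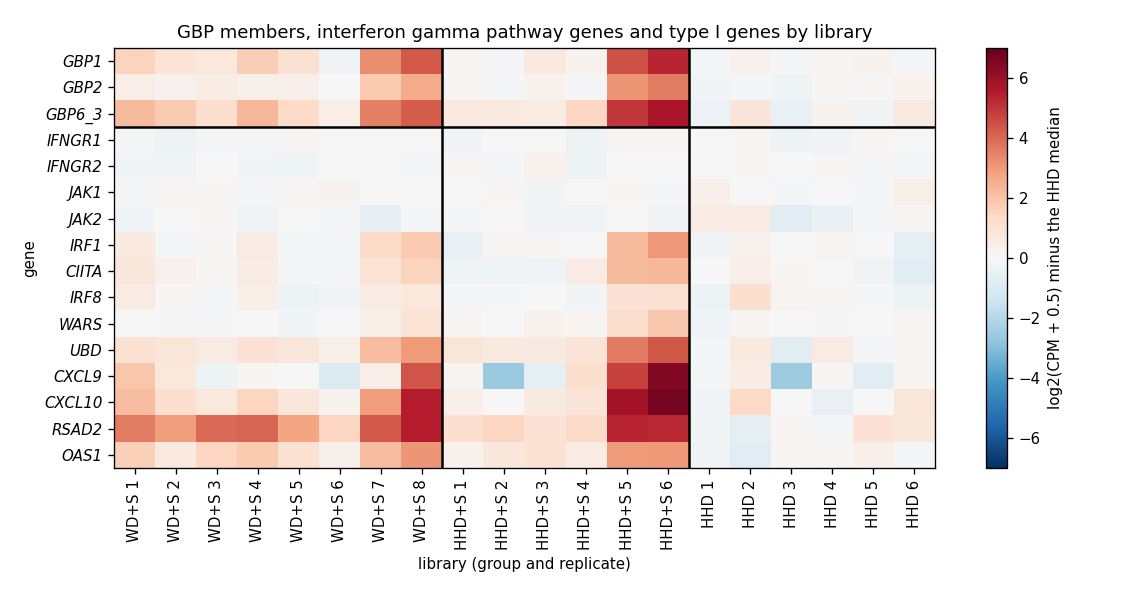
Levels of GBP1, GBP2, GBP6_3, genes of the interferon gamma pathway and 2 genes typical of type I interferon (RSAD2, OAS1) in the 20 libraries, as log2(CPM + 0.5) minus the HHD median, with red above and blue below it. IFNGR2, JAK1, JAK2, CIITA, IRF8, WARS and CXCL9 are from gene reads and the rest from exon reads. WD+S replicates 7 and 8 and HHD+S replicates 5 and 6 are red for the GBPs, IRF1 and CXCL10, while IFNGR1 stays between -0.37 and 0.15 in every library.

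The genes of type I interferon, listed for comparison, were mostly higher in both drug-treated groups by unadjusted p. This list too was chosen with earlier results of these data known, so its counts are a description. Of 32 tested, 29 were higher in HHD+S than in HHD at an unadjusted p under 0.05, against 4.72% of all genes, and 26 in WD+S than in HHD, against 7.56%, with median log2 fold changes of 1.58 and 1.54. In WD+S over HHD+S the median was -0.06. The genes of smallest p in HHD+S over HHD were RSAD2, OAS1, XAF1 and IFIT3. Their ratios of HHD+S over HHD were 13.8, 3.88, 5.86 and 4.12 by means, but 2.96, 1.88, 1.71 and 1.60 by medians. A few high HHD+S libraries thus weighed on these fold changes, and counts within pool 1 are not given. DESeq2 called 1 of the 32 in HHD+S over HHD, RSAD2, and 8 in WD+S over HHD, and edgeR called 0 in each. RSAD2, an antiviral enzyme, was above every HHD library in all 8 WD+S libraries, a full separation seen for 0.132% of genes, with an edgeR adjusted p of 0.216.

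Ranked by Spearman's rho of CPM over the 20 libraries, the genes most like GBP1 were AGRN (0.95), ADAR (0.94), B2M_1 (0.93), SLA-11 (0.92), ISG12(A) (0.92) and CMPK2 (0.92). For GBP2 they were DHX58 (0.93), IFI44 (0.92), OAS2 (0.91), XAF1 (0.91), IFIH1 (0.91) and ZBP1 (0.90). For GBP6_3 they were UBD (0.94), DDX60 (0.93), XAF1 (0.92), CXCL10 (0.92), GBP1 (0.89) and a gene with no symbol. The genes named for GBP2 are all on the list of type I interferon genes, as are CMPK2 and DDX60. UBD and CXCL10 are on the list of interferon gamma targets. Over the 16 libraries without the 4 high ones, rho was 0.93 for AGRN with GBP1, 0.86 for DHX58 with GBP2 and 0.89 for UBD with GBP6_3. These points share library, depth and batch, and the values are a description. AGRN, which encodes the matrix protein agrin, and B2M_1 are rows whose name or copy number leaves their reads uncertain, and B2M_1 and SLA-11 belong to MHC class I.

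The likeness of the 3 GBPs to each other is given in the same way, as a description. Over 20 libraries rho was 0.84 between GBP1 and GBP2, 0.89 between GBP1 and GBP6_3 and 0.83 between GBP2 and GBP6_3. Over the other 16 libraries the values were 0.69, 0.79 and 0.66, and over the 12 libraries of pool 1 they were 0.88, 0.88 and 0.73.

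Genes that work with GBPs in defence inside the cell included 2 with an unadjusted p under 0.05. Of 14 tested, UBE2L6 and RNF213 were higher at that threshold in HHD+S than in HHD, against 4.72% of all genes, and in WD+S than in HHD, against 7.56%. UBE2L6, which attaches ISG15 to proteins, had a log2 fold change of 1.85 in HHD+S over HHD (adjusted p = 0.399, edgeR) and 1.51 in WD+S over HHD (adjusted p = 0.262), and RNF213, a ubiquitin ligase that coats bacteria, had 1.15 and 1.07 (adjusted p = 0.583 and 0.435). The inflammasome genes CASP1 and GSDMD did not pass, with CASP1 at 1.01 in HHD+S over HHD (adjusted p = 0.662, edgeR) and GSDMD at -0.32 in WD+S over HHD+S (adjusted p = 0.783). The autophagy enzyme ATG7 was at -0.23 in WD+S over HHD (adjusted p = 0.473).

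The enzymes that make and attach the lipid anchors of GBPs had log2 fold changes between -0.19 and 0.40 in HHD+S over HHD among those named here. FNTA and FNTB, the subunits of the farnesyltransferase, had edgeR log2 fold changes of 0.10 (adjusted p = 0.831, gene reads) and 0.26 (adjusted p = 0.576) in HHD+S over HHD. PGGT1B, a subunit of the transferase for geranylgeranyl groups, was at -0.18 (adjusted p = 0.82), GGPS1, which makes its substrate, at -0.19 (adjusted p = 0.861), and FDPS, which makes farnesyl diphosphate, at 0.40 (SE 0.15, adjusted p = 0.476). RCE1 and ICMT, which process the anchored end, were at 0.16 and 0.00 (adjusted p = 0.825 and 0.999). Of the 10 tested enzymes 2 were higher at an unadjusted p under 0.05 in HHD+S than in HHD, FDPS and FNTB, against 4.72% of all genes. These are levels of RNA, and the lipid anchors were not measured.

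Of the other dynamin superfamily GTPases, whose roles are in membrane fission and fusion, 0 of 7 tested had an unadjusted p under 0.05 in HHD+S over HHD, where 1 was positive and the median log2 fold change was -0.09. In WD+S over HHD, ATL1 and DNM1 were higher at that threshold and DNM2 was lower, at 0.69, 0.33 and -0.17 (adjusted p = 0.299, 0.337 and 0.426 in edgeR's test). Of all genes 7.56% were higher and 3.87% lower at that threshold in this comparison.

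Markers of T cells and natural killer cells, the usual sources of interferon gamma, moved with the GBPs in part. All 22 were measured, of which NCR1 was at 0 in every library in exon reads, and their summed level was 70.8 to 231 CPM in WD+S, 79.5 to 746 CPM in HHD+S and 74.3 to 157 CPM in HHD. WD+S replicates 7 and 8 had 119 and 231 CPM and HHD+S replicates 5 and 6 had 549 and 746 CPM, beside 70.8 to 157 CPM in the other 16 libraries, so WD+S replicate 7 lay within the range of the others. CD8A, a marker of cytotoxic T cells, had 3.34 and 12.6 CPM in those WD+S libraries and 20.5 and 34.7 CPM in those HHD+S libraries, beside at most 4.52 CPM elsewhere. Within pool 1, where GBP levels were higher in WD+S than in HHD, the summed T and natural killer level was 71.4 to 139.9 CPM in WD+S and 91.5 to 157 CPM in HHD. The part of these cells in the GBP levels of the 4 high libraries was not tested.

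Markers of the other cell types overlapped between the groups, as those of T and natural killer cells did. Spearman's rho of the summed markers with GBP1 over the 20 libraries was 0.50 for T and natural killer cells. It was 0.57 for B cells, 0.43 for macrophages, 0.40 for cardiomyocytes, -0.04 for endothelial cells, -0.21 for mesothelial cells and -0.51 for fat cells. Summed macrophage markers (14 of 14 measured) were 590 to 2911 CPM in WD+S, 1033 to 5030 CPM in HHD+S and 977 to 4361 CPM in HHD, with 1661 and 2618 CPM in WD+S replicates 7 and 8 and 3162 and 5030 CPM in HHD+S replicates 5 and 6. These 4 libraries had a median of 2890 CPM, against 1599 CPM in the other 16, whose highest, 4361 CPM, was HHD replicate 2. Endothelial markers (13 of 13 measured) were 2283 to 3075 CPM in WD+S, 2852 to 3279 CPM in HHD+S and 2239 to 3742 CPM in HHD, and B cell markers, with PAX5 at 0, were 10.8 to 36.7, 11.5 to 39.8 and 10.8 to 124 CPM in the same groups. Cardiomyocyte markers (12 of 13 measured, TTN at 0) were 329 to 5679 CPM in WD+S, 39.98 to 1403 CPM in HHD+S and 92.4 to 1072 CPM in HHD. Mesothelial markers (10 of 10 measured) were 177 to 548 CPM in WD+S, 230 to 822 CPM in HHD+S and 269 to 886 CPM in HHD. The part of these cell types in the GBP levels was not tested.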

How the data were processed

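The diet label of a library gave its group. RNA with a quality indicator above 7 was made into TruSeq RNA v2 libraries, per the labels' protocols. That kit keeps no strand, so reads of overlapping genes stay mixed. The build was Sscrofa10.2 and base calls were converted by bcl2fastq 2.17.1.14, per the submitters' processing notes. The aligner is not given in the sources used here, nor is the counter. In the first table the authors deposited whole-number counts of unique exon reads per gene and, in a second table, counts of unique gene reads with RPKM values, per the file headers. RPKM entered no test.

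The test on counts was that of edgeR 4.0.16 in R 4.3.3 (quasi-likelihood, TMM, minimum count 10, minimum total 15, one fit over 20 libraries, Benjamini-Hochberg adjustment over 11366 genes, threshold 0.05). Gene reads, 6685 genes tested, were fitted alike. DESeq2 1.42.0, pool as a term, single pools, other filters and scalings, and libraries left out were alternatives. Standard errors are the log2 fold change over the square root of F. The fit was tested on simulated data.

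The 3 genes and all gene lists were chosen with earlier results of these data known. Named genes were the 3 members, all GBP rows, 13 genes of interferon gamma signalling and its targets, 7 prenylation genes, up to 4 genes of smallest p per list and comparison, and the 6 genes most like each member. AGRN, PIM1, IDI1 and ATL1 are rows without a symbol in the files that were named by a reference list. CPM was computed from counts on TMM-scaled library sizes. Some genes of these lists are not reported here by name.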

Additional observations from a re-analysis of the deposited data

Results flagged for a closer look

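Of 9 groups examined (3 genes in 3 groups), 1 held a library far from the rest, by the gap to its neighbour over the range of the group, set against Dixon's critical value. This describes the spread within a group and is no test of a difference between groups. GBP1 in WD+S replicate 8, at 718.0 CPM, lay far above the other WD+S libraries, the next of which, replicate 7, had 348 CPM. Chance would flag about 1 in 20 groups if the values were normally distributed. GBP1 in WD+S was skewed, with a mean of 192 CPM and a median of 93.4 CPM, so that rate need not hold. In HHD+S, replicates 5 and 6 were both high, and a test for a single distant value does not respond to such a pair.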

How the results depend on the processing

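No paired analysis was possible because the labels give no replicate numbers, and the numbers used here follow the order of deposit and pair no libraries. Of 471 values recomputed under alternatives, for 15 results, 441 kept a count of calls within 1.5 times or a log2 fold change within 1 SD between libraries of a group (the 4 high libraries included). With pool as a term, the log2 fold changes of GBP1, GBP2 and GBP6_3 were 1.99, 1.32 and 2.82 in HHD+S over HHD, 1.45, 0.64 and 2.07 in WD+S over HHD, and -0.54, -0.68 and -0.76 in WD+S over HHD+S. Differences of mean log2 CPM (prior count 2) were 1.75, 1.15 and 2.23, 1.62, 0.82 and 2.05, and -0.13, -0.33 and -0.19 in the same order. With pool 1 only, the log2 fold change of HHD+S over HHD was 0.23 for GBP1, 0.16 for GBP2 and 0.74 for GBP6_3, and that of WD+S over HHD+S was 1.00 for GBP1 and 1.14 for GBP6_3, with the sign turned. Without HHD+S replicates 5 and 6 together, HHD+S over HHD was 0.23, 0.052 and 0.71 for the 3 genes and WD+S over HHD+S was 2.10, 1.07 and 1.87. Without those and WD+S replicates 7 and 8, HHD+S over HHD was 0.23, 0.0518 and 0.71, WD+S over HHD was 1.04 for GBP1 and 0.35 for GBP2, and WD+S over HHD+S was 0.88 for GBP6_3. Leaving out single libraries, HHD+S over HHD ranged from 2.37 to 3.67 for GBP1, 1.34 to 2.26 for GBP2 and 2.89 to 4.11 for GBP6_3, all lowest without HHD+S replicate 6. WD+S over HHD ranged from 1.62 to 2.49, 0.69 to 1.22 and 2.08 to 2.80, all lowest without WD+S replicate 8. WD+S over HHD+S ranged from -1.81 to -0.03, -1.35 to -0.22 and -1.79 to -0.31, lowest without WD+S replicate 8 and nearest 0 without HHD+S replicate 6. Genes called over the whole table numbered 0 in each comparison with edgeR. DESeq2 called 11 in HHD+S over HHD, 81 in WD+S over HHD and 10 in WD+S over HHD+S, and 1 interferon gamma target in HHD+S over HHD. In WD+S over HHD edgeR called 14 with pool 1 only, 1 without HHD+S replicates 5 and 6, 8 without the 4 high libraries, 1 with the 2 groups alone, and 0 to 22 leaving out 1 library (22 without WD+S replicate 1, 14 without HHD replicate 6). In WD+S over HHD+S it called 1 with pool 1 only, 1 with the 2 groups alone and 0 to 1 leaving out 1 library (1 without HHD+S replicate 2). The cause was not tested. GBP6_3 in HHD, at 11 to 29 reads, is limited by depth.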

Other observations

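ISG15, a ubiquitin-like protein induced by interferons, had 12.1 to 769 CPM of gene reads over the 20 libraries and a rho of 0.89 with GBP1 in that table. AGRN, the gene most like GBP1 in the exon-read table, had a rho of 0.95 with GBP1 in the gene-read table too, at 146.6 to 613 CPM. In RefSeq's pig gene list 1 gene, LOC110261384, lies between AGRN and ISG15.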
